A study of Arabidopsis thaliana with 6 samples.

Results

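UDP-glycosyltransferases (UGTs) of Arabidopsis thaliana were examined in camta3 mutant and wild-type plants. The family was taken as every gene whose symbol in the array annotation begins with UGT and a number, among probe sets that the annotation pairs with exactly 1 gene. This gave 47 of the 13355 genes so represented, each with 1 probe set of its own, and all 47 could be placed in the reference gene order. Total RNA from plants 3 weeks old had been hybridised to 6 Affymetrix arrays. There were 2 biological replicates each of the mutant alleles camta3-1 and camta3-2 and of the wild type (WT). CAMTA3, the gene mutated in both alleles, encodes a transcription factor that binds calmodulin and is known to hold back defence genes of the salicylic acid pathway. The labels give no other genotype, treatment or tissue, and they do not say whether a replicate was 1 plant or a pool.

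UGTs attach a sugar from a UDP-sugar donor to small molecules. In plants they act on hormones, phenylpropanoids, flavonoids, glucosinolate precursors and foreign compounds, and the sugar generally makes the acceptor more soluble and alters its activity, transport or storage. The number in a symbol names the family, the letter the subfamily and the last number the gene. Several subfamilies lie in the genome as tandem copies, and 31 of the 47 genes lay in 13 runs with at most 2 other protein-coding genes between neighbours. Near-identical copies can share signal on an array, and whether this happened here was not tested.

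Values are log2 expression values, so a difference of 1 is a 2-fold change. Array medians over 22746 probe sets lay between 6.18 and 6.26. The probe set of the targeted gene was not analysed here, so the labels were not checked against CAMTA3. Listed genes are called measured here when their name matched a probe set that the annotation pairs with 1 gene. UGT genes were matched by symbol alone. The annotation gives no gene for 8730 probe sets, so unmatched genes may still be on the array. Of 9 listed markers of green tissue only RCA (Rubisco activase) was measured, at 13.83 to 14.00. The root markers EXPA7 and PYK10, 2 of 6 listed, and the pollen marker AGL66, 1 of 5 listed for flower and pollen, did not pass in any comparison (log2 of the summed signal of the root pair 6.16 to 7.02 per array, AGL66 3.67 to 4.04), and none of 5 seed storage markers was measured. The tissue therefore rests on few markers. In whole-tissue RNA, fewer cells of a type and less RNA per cell cannot be told apart. A call below means an adjusted p under 0.05 in limma, a linear model that pools the spread over probe sets, with Benjamini-Hochberg adjustment over all 22746.

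No UGT gene passed for both alleles averaged against wild type, where 1.41% of all probe sets were called. With 47 genes a count of 0 is near that background and is not a result about the family. At an unadjusted p under 0.05 there were 5 UGT genes, or 10.6%, beside 13.4% of all probe sets. Of the 5, UGT71B6 and UGT72E1 had higher values in the mutants, as did 5.31% of all probe sets, and UGT76C2, UGT76E11 and UGT85A7 had lower values, as did 8.08%. This count of 5 rose by more than 1.5 times without either camta3-2 array and fell by more than 1.5 times without either wild-type array. Each such fit leaves 1 array in a group. All 4 mutant arrays lay above, or all below, the wild-type pair for 9 UGT genes, or 19.1%, beside 23.7% of all probe sets.

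The sizes of the measured differences were small for most of the family. Of the 47 genes, 26 lay below the 40th percentile of mean values, where array summaries tend to compress differences. For those genes a small difference or a narrow interval does not show that the transcript changed little. Log2 fold changes ran from -0.63 (UGT76C2) to 0.62 (UGT72E1), and 4 of the 47 genes differed by at least 0.5 either way, which is 8.51% beside 4.53% of all probe sets. The fourth of these beside UGT72E1, UGT76C2 and UGT76E11 was UGT87A2. The 95% interval of the log2 fold change stayed within a 2-fold change either way for 43 genes and within a 1.5-fold change for 33. These are 91.5% and 70.2% of the family, beside 96.4% and 84.9% of all probe sets. The genes whose interval reached beyond 2-fold were those same 4, with the widest bound at 1.23 for UGT87A2. The median log2 fold change of the family was -0.089, beside -0.046 over all probe sets. The family median was -0.034 after cyclic loess and -0.053 after quantile normalization, beside 0.0041 and -0.020 over all probe sets. It was -0.020 without camta3-2 replicate 2 and -0.15 without camta3-2 replicate 1 or wild type replicate 2. Over the 21 genes above the 40th percentile it was -0.20, with no median of all probe sets computed beside it. Negative values were found for 37 genes (78.7%, beside 62.6% of all probe sets), but for 27 after cyclic loess and 29 after quantile normalization of the arrays (48.9% and 55.7% of all probe sets), so the side of 0 is not firm for genes near it. A sign that changed under a scaling was found for 10 genes, all with a log2 fold change between -0.062 and 0 in the deposited values. Leaving out 1 array moved the log2 fold change by over 1.5 times or across 0 for 25 of the 34 genes described singly, and not for UGT72E1, UGT72E2, UGT72E3, UGT76C2, UGT76E11, UGT78D3, UGT84A3, UGT84B2 and UGT85A7.

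**Figure D1:**
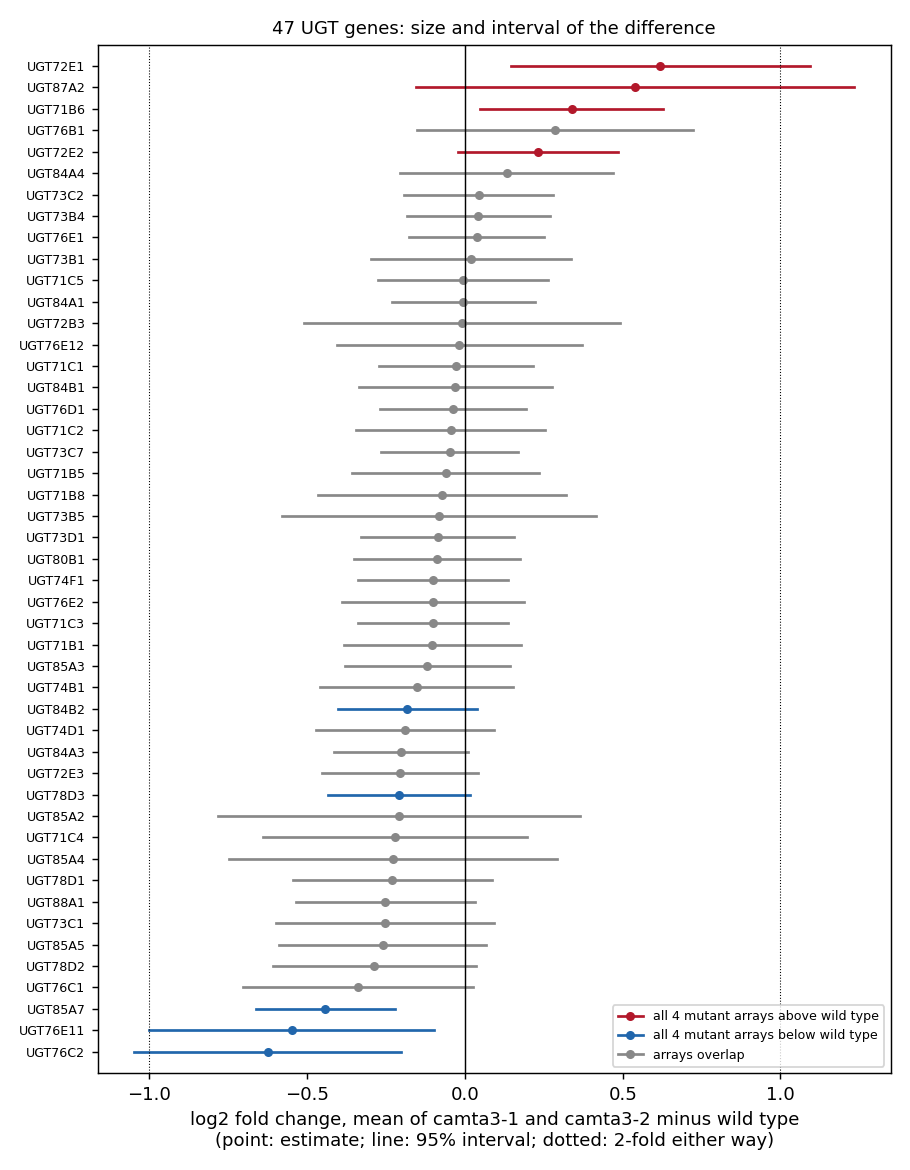
Log2 fold change of each of the 47 UGT genes, mean of both camta3 alleles minus wild type, on the horizontal axis, with its 95% interval; dotted lines mark a 2-fold change. Intervals of 4 genes reach past a dotted line, and colours mark the 9 genes in which all 4 mutant arrays lie above or below both wild-type arrays.

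**Figure D2:**
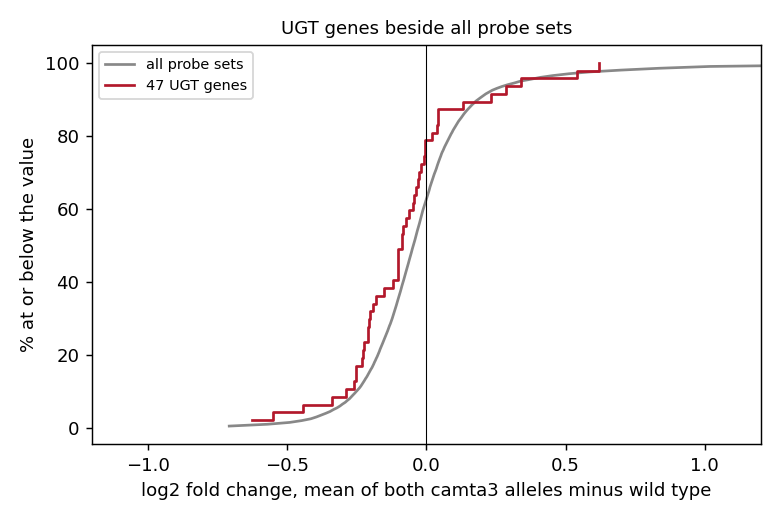
Cumulative share, in percent, of the 47 UGT genes and of 22746 probe sets at or below each log2 fold change (mean of both alleles minus wild type). The UGT line crosses 50% at its median of -0.089 and the line of all probe sets at -0.046; the horizontal axis is cut at 1.2 either way.

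Genes that conjugate growth hormones and abscisic acid were measured for 8 of 14 listed, and none was called in either direction. Their median log2 fold change was -0.13. Over all probe sets 1.41% were called for the mean of both alleles, and the median was -0.046. Both values are the background for this list and each list below. In lists this short a count of 0 is near that background and is not a result about the listed genes. Array values are given throughout with replicate 1 before replicate 2. UGT76C2, a cytokinin N-glucosyltransferase, was at 7.24 and 6.98 in wild type, 6.86 and 6.33 in camta3-1, and 6.57 and 6.18 in camta3-2. All 4 mutant arrays lay below both wild-type arrays, with a log2 fold change of -0.63 (standard error 0.18, adjusted p = 0.196) and a 95% interval from -1.05 to -0.20. Its tandem neighbour UGT76C1, which also N-glucosylates cytokinins, was at 6.70 and 6.38 in wild type, 6.30 and 6.07 in camta3-1, and 6.42 and 6.001 in camta3-2. The higher camta3-2 array of UGT76C1 lay above the lower wild-type array, and the log2 fold change was -0.34 (standard error 0.16, adjusted p = 0.416), or -0.18 without wild type replicate 1.

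UGT71B6, an abscisic acid glucosyltransferase, was at 3.76 and 3.39 in wild type, 4.02 and 3.89 in camta3-1, and 3.90 and 3.85 in camta3-2. Both wild-type arrays lay below all mutant arrays and also differed from each other by more than the mutant arrays did. The probe set of UGT71B6 is dim, with a mean of 3.80 beside 5.33 at the 40th percentile. Its log2 fold change was 0.34 (standard error 0.12, adjusted p = 0.297), and it was 0.52 or 0.16 when wild type replicate 1 or 2 was left out. The related abscisic acid gene UGT71B8 was at 4.49 and 3.98 in wild type, 4.25 and 3.98 in camta3-1, and 4.35 and 4.07 in camta3-2, and its groups overlapped. UGT71C5, another abscisic acid glucosyltransferase, was at 7.11 and 7.25 in wild type, 7.24 and 7.03 in camta3-1, and 7.32 and 7.11 in camta3-2, with all groups overlapping. Both had log2 fold changes close to 0, at -0.072 and -0.0058.

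Among genes of auxin conjugation, UGT74D1 was at 8.11 and 7.88 in wild type, 7.85 and 7.76 in camta3-1, and 7.94 and 7.67 in camta3-2. Its camta3-1 arrays lay below both wild-type arrays, whereas its camta3-2 arrays overlapped with wild type, and the log2 fold change was -0.19 (adjusted p = 0.571), or -0.073 and -0.31 without wild type replicate 1 and 2 and -0.12 without camta3-2 replicate 2. UGT84B1, which esterifies indole-3-acetic acid with glucose, was at 4.22 and 3.98 in wild type, 4.25 and 3.91 in camta3-1, and 4.10 and 4.02 in camta3-2, with overlap of all groups. Its tandem neighbour UGT84B2 was at 4.21 and 4.14 in wild type, 3.99 and 4.06 in camta3-1, and 4.02 and 3.91 in camta3-2, with all mutant arrays below wild type by a small margin. Their log2 fold changes were -0.030 and -0.18 (adjusted p = 0.954 and 0.477).

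Genes that conjugate phenylpropanoids and monolignols, the building blocks of lignin, were measured under the symbol rule for 6 of 8 listed. None was called, and their median log2 fold change was 0.063. The listed UGT72B1 has the symbol GT72B1 and is in neither this count nor this median. Its log2 fold change was -0.46 in camta3-1, -0.024 in camta3-2 and -0.24 for the mean of both alleles. UGT72E1, UGT72E2 and UGT72E3 encode glucosyltransferases of monolignols and their aldehydes. UGT72E1 was at 6.36 and 6.40 in wild type, 7.29 and 6.81 in camta3-1, and 7.27 and 6.62 in camta3-2. All mutant arrays lay above wild type, and the 2 mutant arrays labelled replicate 1 lay well above those labelled replicate 2. Its log2 fold change of 0.62 (standard error 0.20, adjusted p = 0.243) was the highest in the family, with a 95% interval from 0.15 to 1.09. UGT72E2 was at 5.20 and 5.10 in wild type, 5.37 and 5.27 in camta3-1, and 5.56 and 5.32 in camta3-2, again with all mutant arrays above wild type, and had a log2 fold change of 0.23 (standard error 0.11, adjusted p = 0.427). UGT72E3 was at 4.59 and 4.68 in wild type, 4.41 and 4.30 in camta3-1, and 4.61 and 4.40 in camta3-2, with its camta3-1 arrays below both wild-type arrays and a log2 fold change of -0.20 (adjusted p = 0.475).

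The UGT84A genes encode enzymes that form glucose esters of hydroxycinnamic acids, and the 3 measured ones are direct neighbours. UGT84A1 was at 5.24 and 5.08 in wild type, 5.07 and 5.12 in camta3-1, and 5.24 and 5.18 in camta3-2, so that both mutant pairs overlapped with wild type, while both camta3-2 arrays lay above both camta3-1 arrays. UGT84A3 was at 8.11 and 8.13 in wild type, 7.75 and 7.73 in camta3-1, and 8.14 and 8.06 in camta3-2, so that both camta3-1 arrays lay below the other 4 arrays. UGT84A4 was at 5.86 and 5.89 in wild type, 6.50 and 6.07 in camta3-1, and 5.86 and 5.59 in camta3-2, so that both camta3-1 arrays lay above the other 4. Log2 fold changes for the mean of both alleles were -0.0059, -0.20 and 0.13 in that order, with adjusted p = 0.987, 0.398 and 0.764. That of UGT84A4 ran from 0.025 to 0.24 with 1 array left out, the ends being those without camta3-1 replicate 1 and replicate 2. Of the 20 listed genes of the phenylpropanoid pathway outside the family 2 were measured and none was called. HCT, an acyltransferase of monolignol synthesis, was at -0.14 on the scale of log2 fold change (adjusted p = 0.576). The reductase gene CCR2 was at 0.11 (adjusted p = 0.802).

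For flavonoid and anthocyanin decoration, 3 of 8 listed genes were measured under the symbol rule, with none called and a median log2 fold change of -0.23. The listed UGT79B1 has the symbol UF3GT, is in neither this count nor this median, and is described below. UGT78D2, a flavonoid 3-O-glucosyltransferase, was at 8.76 and 8.74 in wild type, 8.31 and 8.42 in camta3-1, and 8.79 and 8.33 in camta3-2. Of its mutant arrays only camta3-2 replicate 1 lay above the wild-type values, and the log2 fold change was -0.29 (standard error 0.14, adjusted p = 0.436). UGT78D1, a flavonol 3-O-rhamnosyltransferase, was at 9.27 and 9.28 in wild type, 8.89 and 9.07 in camta3-1, and 9.33 and 8.91 in camta3-2, with the same array alone above wild type and a log2 fold change of -0.23 (adjusted p = 0.537). UGT78D3, a flavonol 3-O-arabinosyltransferase that lies close to UGT78D2 in the genome, was at 4.13 and 4.06 in wild type, 3.83 and 3.78 in camta3-1, and 3.90 and 4.05 in camta3-2. All its mutant arrays lay below wild type, with a log2 fold change of -0.21 (adjusted p = 0.42). The sign of all 3 was the same under the 4 scalings tried. Without camta3-2 replicate 2, UGT78D1 was at -0.13 and UGT78D2 at -0.17 by log2 fold change.

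UF3GT and DFR differed by more than these genes and did not pass either. UF3GT, a flavonoid glycosyltransferase gene with UGT79B1 among its synonyms and therefore outside the symbol rule, was at 7.65 and 7.17 in wild type, 6.08 and 6.48 in camta3-1, and 6.89 and 5.60 in camta3-2. Every mutant array lay below wild type, and the log2 fold change was -1.15 (standard error 0.33, adjusted p = 0.198). DFR, the reductase that leads from dihydroflavonols towards anthocyanins, was at 8.84 and 8.38 in wild type, 7.24 and 7.52 in camta3-1, and 7.79 and 6.69 in camta3-2. Its log2 fold change was -1.30 (standard error 0.29, adjusted p = 0.0999). BAN, an enzyme of proanthocyanidin synthesis, differed by a log2 value of -0.0085 (adjusted p = 0.984). DFR and BAN were the 2 measured of 17 listed flavonoid pathway genes, and none was called.

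Genes that conjugate salicylic acid and other immune signals were measured for 4 of 5 listed, and none was called. The median log2 fold change was -0.069. UGT76B1, which glucosylates isoleucic acid, salicylic acid and N-hydroxypipecolic acid, was at 3.62 and 3.79 in wild type, 4.06 and 3.68 in camta3-1, and 4.42 and 3.81 in camta3-2. Both camta3-2 arrays lay above wild type, by a narrow margin for replicate 2, while one camta3-1 array lay above wild type and the other between the wild-type arrays. Its log2 fold change was 0.29 (standard error 0.19, adjusted p = 0.581), with a 95% interval from -0.15 to 0.72. It was 0.13 without camta3-2 replicate 1 and 0.44 without camta3-2 replicate 2. UGT74F1, a salicylic acid glucosyltransferase, was at 4.49 and 4.71 in wild type, 4.52 and 4.51 in camta3-1, and 4.51 and 4.44 in camta3-2, and its log2 fold change was -0.10 (adjusted p = 0.745).

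UGT76D1, which glucosylates dihydroxybenzoic acids formed from salicylic acid, was at 4.46 and 4.43 in wild type, 4.44 and 4.28 in camta3-1, and 4.51 and 4.39 in camta3-2, with overlap of all groups and a log2 fold change of -0.038. UGT71C3, a methyl salicylate glucosyltransferase, was at 4.42 and 4.33 in wild type, 4.50 and 4.40 in camta3-1, and 4.01 and 4.18 in camta3-2. Both camta3-2 arrays of UGT71C3 lay below the other 4 arrays, and the log2 fold change for the mean of both alleles was -0.10 (adjusted p = 0.738). The probe sets of all 4 genes lay below the 40th percentile of mean values, 5.33. Array summaries tend to compress differences at such levels. BSMT1, a methyltransferase that forms methyl salicylate and the 1 measured of 15 listed genes of salicylic acid synthesis and modification, differed by 0.11 (log2 fold change, adjusted p = 0.795).

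UGT73 genes are known to respond to pathogens and oxidative stress. Under the symbol rule 7 of 13 listed were measured, with none called and a median log2 fold change of -0.048. The listed UGT73B2 and UGT73B3 share a probe set that did pass. It is in neither this count nor this median and is described below. UGT73B5, linked in earlier work to redox status and resistance to Pseudomonas syringae, was at 4.47 and 4.55 in wild type, 4.70 and 4.25 in camta3-1, and 4.74 and 4.01 in camta3-2. Mutant arrays of UGT73B5 lay on both sides of wild type in each allele, with a log2 fold change of -0.083 (standard error 0.21, adjusted p = 0.915). Its neighbour UGT73B4 was at 3.64 and 3.52 in wild type, 3.69 and 3.67 in camta3-1, and 3.63 and 3.50 in camta3-2, and UGT73B1 was at 5.44 and 5.59 in wild type, 5.77 and 5.58 in camta3-1, and 5.59 and 5.20 in camta3-2. The log2 fold changes of these 2 were 0.043 and 0.020. Of the 7 measured UGT73 genes only UGT73B1 lay above the 40th percentile of mean values.

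UGT73C1 was at 4.55 and 4.38 in wild type, 4.07 and 4.18 in camta3-1, and 4.54 and 4.05 in camta3-2, with both camta3-1 arrays below wild type and a log2 fold change of -0.25 (adjusted p = 0.533), or -0.13 without camta3-2 replicate 2. With wild type replicate 1 left out it was -0.17. Its neighbour UGT73C2 was at 3.62 and 3.57 in wild type, 3.72 and 3.52 in camta3-1, and 3.68 and 3.62 in camta3-2. UGT73C7 was at 4.11 and 4.08 in wild type, 4.03 and 4.08 in camta3-1, and 4.10 and 3.99 in camta3-2. UGT73D1 was at 3.93 and 4.06 in wild type, 3.99 and 3.96 in camta3-1, and 3.94 and 3.74 in camta3-2. For all 3 the mutant and wild-type arrays overlapped over both alleles, but both camta3-2 arrays of UGT73C2 lay just above wild type and both camta3-1 arrays of UGT73C7 just below it. Log2 fold changes were 0.044 for UGT73C2, -0.048 for UGT73C7 and -0.087 for UGT73D1.

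One further probe set in this subfamily did pass. The annotation pairs it with UGT73B2 and UGT73B3, so it falls outside the rule and its signal cannot be assigned to either. It was at 3.997 and 3.72 in wild type, 5.46 and 4.75 in camta3-1, and 5.55 and 5.30 in camta3-2. All mutant arrays lay above wild type, and the log2 value rose by 1.41 with a standard error of 0.20 (adjusted p = 0.0205), a 2.65-fold change. In camta3-2 it rose by 1.57 (adjusted p = 0.0355), and in camta3-1 the log2 fold change was 1.25 (adjusted p = 0.0639). For the mean of both alleles the call was lost without camta3-2 replicate 1, without either wild-type array, and without moderation of the variances (adjusted p = 0.42). It held after cyclic loess, median centring and quantile normalization (limma, adjusted p = 0.018, 0.0187 and 0.018).

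The other 2 probe sets with several genes, 1 of them a UGT in each, did not pass. Their log2 fold changes were -0.032 and -0.18 (adjusted p = 0.929 and 0.589). Family genes with a UGT name as a synonym alone were UF3GT, GT72B1, SGT and AT5G54010. GT72B1, AT5G54010 and the sterol glucosyltransferase gene SGT differed from wild type by -0.24, 0.085 and -0.076 (log2, adjusted p = 0.567, 0.762 and 0.836).

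UGT74B1, which glucosylates thiohydroximates in glucosinolate synthesis, was at 9.55 and 9.44 in wild type, 9.41 and 9.18 in camta3-1, and 9.56 and 9.21 in camta3-2. Its camta3-1 arrays lay below wild type and its camta3-2 arrays on both sides, with a log2 fold change of -0.15 (adjusted p = 0.692), or -0.066 and -0.24 without camta3-2 replicate 2 and replicate 1. BCAT4, an aminotransferase that starts chain elongation of aliphatic glucosinolates and the 1 measured of 16 listed pathway genes, differed from wild type by a log2 value of -0.42 (adjusted p = 0.148). UGT80B1, a sterol glucosyltransferase, was at 8.05 and 7.89 in wild type, 7.92 and 7.82 in camta3-1, and 8.02 and 7.77 in camta3-2, and its log2 fold change was -0.089 (adjusted p = 0.802).

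Glutathione S-transferases, which like UGTs conjugate foreign compounds, were measured for 14 genes, and none was called for any comparison, with 3 at an unadjusted p under 0.05 (limma) for the mean of both alleles, a level that 13.4% of all probe sets reached. Their median log2 fold change for the mean of both alleles was -0.092. GSTF4 had the smallest adjusted p, 0.161, with a log2 fold change of -0.38. The log2 fold changes of GSTU20, GSTU23 and GSTU22 were -0.28, -0.32 and -0.20 (adjusted p = 0.239, 0.239 and 0.447). None of 15 listed genes of the oxylipin and xenobiotic response was measured.

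Of the 17 UGT genes in no role list, 4 were among those with the smallest p or the largest difference. UGT85A7 had the smallest adjusted p in the family. It was at 5.79 and 5.72 in wild type, 5.24 and 5.21 in camta3-1, and 5.46 and 5.34 in camta3-2, with close replicates and every mutant array below wild type. Its log2 fold change was -0.44 (standard error 0.094, adjusted p = 0.0871), with a 95% interval from -0.66 to -0.22. Its adjacent genes UGT85A2, UGT85A5 and UGT85A3 had log2 fold changes of -0.21, -0.26 and -0.12, and UGT85A4, outside that run, one of -0.23. All 5 measured UGT85A genes thus had negative log2 fold changes, with the same sign under the 4 scalings, beside 62.6% of all probe sets below 0. In camta3-2 alone they ran from -0.38 to -0.038. Among them only UGT85A7 was followed with each array left out, so whether the shared sign rests on 1 array was not tested. For UGT85A2, UGT85A3, UGT85A4 and UGT85A5 the mutant and wild-type arrays overlapped. UGT85A2 was at 7.70 and 7.46 in wild type, 7.60 and 7.11 in camta3-1, and 7.82 and 6.97 in camta3-2. Its camta3-2 arrays were thus the highest and the lowest of the 6. These genes are not independent, since 4 of them form 1 tandem run, and none passed (smallest adjusted p = 0.0871). Without 1 array the adjusted p of UGT85A7 was 0.111 to 0.469.

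UGT76E11 was at 7.08 and 6.98 in wild type, 6.53 and 6.20 in camta3-1, and 6.95 and 6.26 in camta3-2. All mutant arrays lay below wild type, with a gap of 0.69 between the camta3-2 arrays, and the log2 fold change was -0.55 (standard error 0.19, adjusted p = 0.279). UGT76E12, with 1 gene between them, had a log2 fold change of -0.018. UGT87A2, known to affect flowering time, was at 7.32 and 7.37 in wild type, 8.38 and 7.40 in camta3-1, and 8.27 and 7.48 in camta3-2. Its mutant arrays labelled replicate 1 stood far above all others, and those labelled replicate 2 exceeded wild type by little. The log2 fold change of 0.54 thus had a standard error of 0.30, the largest in the family (adjusted p = 0.507), and it was 0.29 without camta3-1 replicate 1 and 0.34 without camta3-2 replicate 1. UGT88A1 was at 11.10 and 10.90 in wild type, 10.63 and 10.56 in camta3-1, and 11.04 and 10.74 in camta3-2, with both camta3-1 arrays below wild type and a log2 fold change of -0.25 (adjusted p = 0.437), or -0.15 without wild type replicate 1.

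The other 13 genes were UGT71B1, UGT71B5, UGT71C1, UGT71C2, UGT71C4, UGT72B3, UGT76E1, UGT76E2, UGT76E12, UGT85A2, UGT85A3, UGT85A4 and UGT85A5. Their log2 fold changes ran from -0.26 to 0.037, with adjusted p of 0.498 to 0.99. The 95% intervals of all 13 lay between -0.78 and 0.49.

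**Figure D3:**
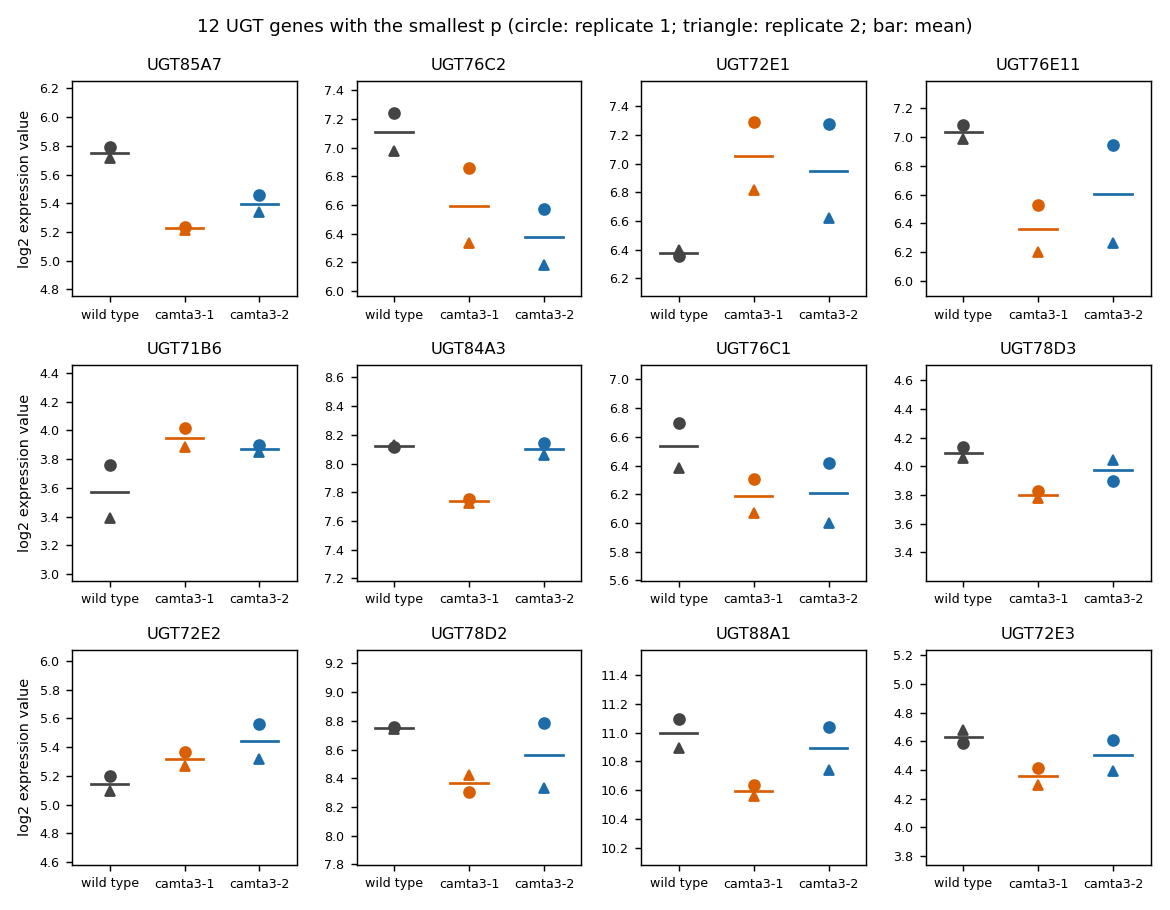
Log2 expression values of the 12 UGT genes with the smallest p for both alleles averaged against wild type, by group, with a circle for replicate 1, a triangle for replicate 2 and a bar for the mean. Every panel spans 1.5 log2 units; UGT85A7, UGT76C2, UGT76E11 and UGT78D3 have all mutant arrays below wild type, and UGT72E1, UGT71B6 and UGT72E2 have all above.

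Each allele was also set against wild type alone. The 2 comparisons share the wild-type arrays, so their values are given side by side and are not independent. In camta3-1 no UGT gene passed, where 1.08% of all probe sets were called. At an unadjusted p under 0.05 (limma) there were 11 UGT genes, or 23.4%, beside 12.2% of all probe sets. Of these, 8 had lower values in camta3-1 (UGT76C2, UGT76E11, UGT78D2, UGT78D3, UGT84A3, UGT85A5, UGT85A7 and UGT88A1) and 3 had higher ones (UGT71B6, UGT72E1 and UGT84A4), beside 7.18% and 5% of all probe sets. The count of 11 fell when a camta3-1 or a wild-type array was left out, and rose when a camta3-2 array was left out. For UGT85A7 the log2 fold change was -0.53 (adjusted p = 0.0865), and for UGT84A3 it was -0.38 (adjusted p = 0.179). On the same scale UGT76E11 was at -0.67 (adjusted p = 0.281) and UGT72E1 at 0.67 (adjusted p = 0.302). Both camta3-1 arrays lay above, or both below, the wild-type pair for 25 UGT genes, or 53.2%, beside 45.3% of all probe sets.

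In camta3-2 no UGT gene passed, where 0.734% of all probe sets were called. There were 5 UGT genes, or 10.6%, at an unadjusted p under 0.05 (limma), beside 11.2% of all probe sets. By log2 fold change these were UGT76C2, at -0.73 (adjusted p = 0.255), UGT85A7, at -0.36 (adjusted p = 0.287), UGT72E1, at 0.57 (adjusted p = 0.427), UGT71C3, at -0.28 (adjusted p = 0.437), and UGT72E2, at 0.29 (adjusted p = 0.446). The count of 5 rose without camta3-2 replicate 1 and fell when a camta3-1 or a wild-type array was left out. Groups did not overlap for 14 UGT genes, or 29.8%, beside 42.4% of all probe sets.

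The difference between the alleles was tested directly. No UGT gene passed, and 1 of the 22746 probe sets did, which is 0.0044%. At an unadjusted p under 0.05 (limma) there were 4 UGT genes, or 8.51%, beside 6.34% of all probe sets. By the log2 difference, UGT84A4 was lower in camta3-2 than in camta3-1, at -0.55 (standard error 0.17), and so was UGT71C3, at -0.35 (standard error 0.12). UGT84A3 was higher, at 0.36 (standard error 0.10), and so was UGT85A5, at 0.45 (standard error 0.16). All 4 had an adjusted p of 0.778. Arrays of the alleles did not overlap for 13 UGT genes, or 27.7%, beside 34.6% of all probe sets. The count of 4 rose without camta3-2 replicate 2 and fell when a camta3-1 array was left out. The 95% interval of the difference between alleles stayed within a 2-fold change for all 47 genes and 97.6% of all probe sets, with the widest bound at 0.94.

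Arrays of the same mutant allele differed from each other across much of the family. In camta3-2 the array labelled replicate 1 was higher than the one labelled replicate 2 for 44 of 47 UGT genes, with a median difference of 0.27, beside 59.3% of all probe sets and a median of 0.05. In camta3-1 this held for 38 genes, with a median of 0.12, beside 49.0% of all probe sets and a median of -0.0047. In wild type it held for 30 genes, with a median of 0.058, beside 48.5% and a median of -0.0066. Replicate 1 was higher in both alleles for 35 UGT genes, or 74.5%, and for 34.7% of all probe sets.

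A gap of more than 0.3 in both alleles was found for 10 UGT genes, or 21.3%, and for 3.40% of all probe sets. The 10 were UGT71C4, UGT72B3, UGT72E1, UGT73B5, UGT76B1, UGT76C2, UGT76E11, UGT85A2, UGT85A4 and UGT87A2. UGT87A2 had the largest gap in camta3-1, 0.98, with 0.79 in camta3-2 and -0.045 in wild type. UGT85A2 had gaps of 0.50 in camta3-1, 0.85 in camta3-2 and 0.25 in wild type. For UGT72E1 the gaps were 0.48 and 0.65 in the mutants and -0.04 in wild type. These genes include 4 of those with the largest differences from wild type, whose standard errors (0.18 to 0.30) lie above the family's median of 0.12. Standard errors are computed from the same gaps, so higher ones follow from the selection and are not a separate result. The labels do not say whether a replicate number marks a shared batch or day.

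**Figure D4:**
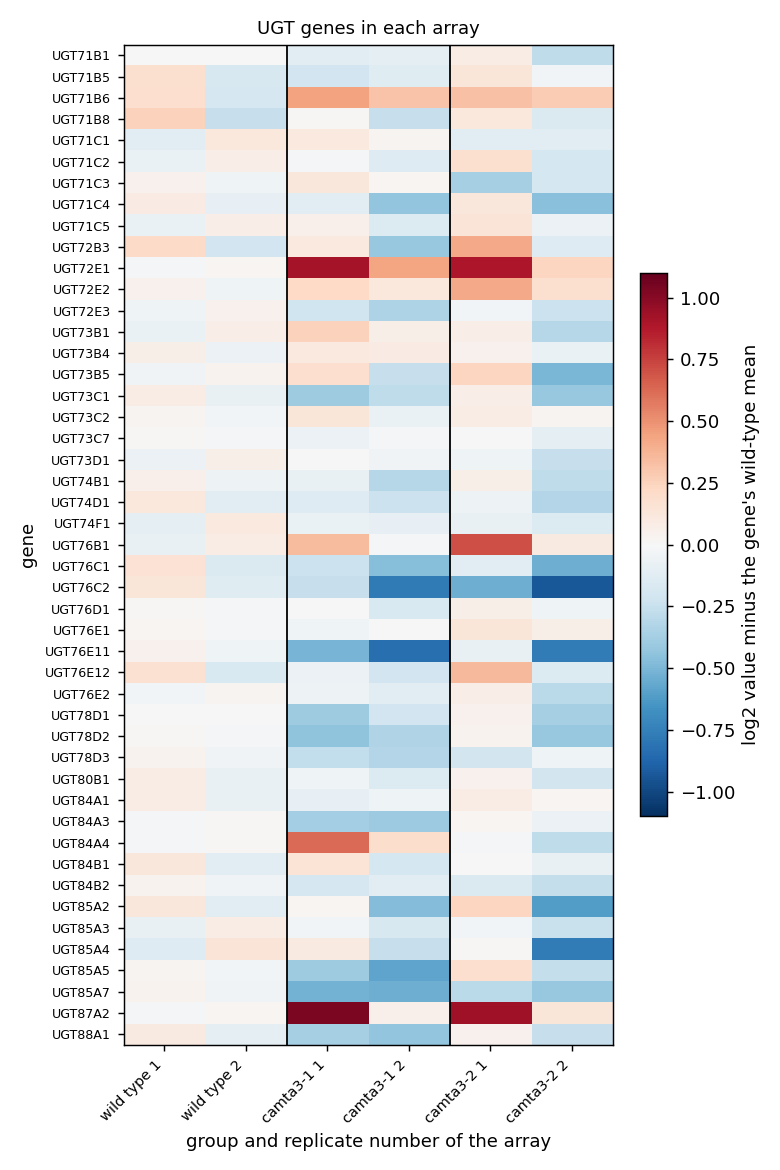
Log2 value of each UGT gene in each of the 6 arrays minus that gene's wild-type mean (colour scale from -1.1 to 1.1), with groups separated by black lines. UGT72E1 and UGT87A2 are reddest in the mutant arrays labelled replicate 1, and UGT76C2 and UGT76E11 are bluest in those labelled replicate 2.

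**Figure D5:**
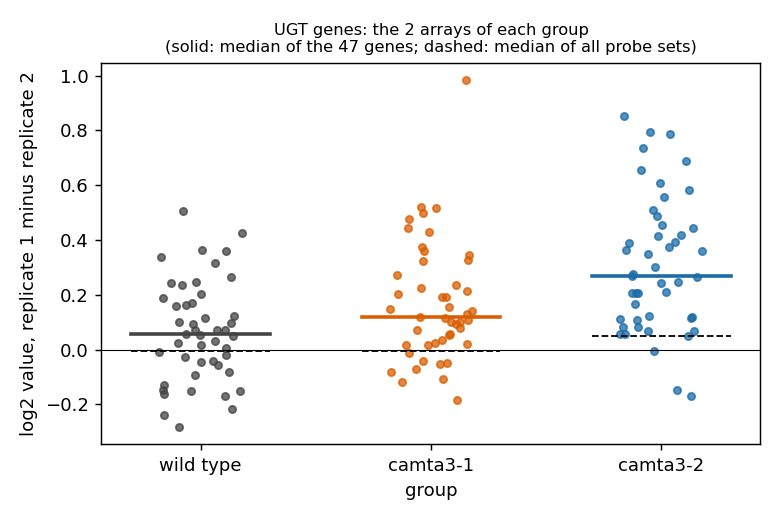
Log2 value of replicate 1 minus replicate 2 for the 47 UGT genes in each group (points), with the median of these genes (solid line) and of all probe sets (dashed line). The UGT median is 0.058 in wild type, 0.12 in camta3-1 and 0.27 in camta3-2.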

How the data were processed

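The authors deposited log2 expression values for 22810 probe sets on 6 arrays, made with Partek and RMA per the submitters' processing notes, with neither versions nor settings stated. RMA normalizes between arrays and summarises probes, which compresses differences of dim probe sets. No scanner files were used, so background correction was not varied. Values were used as deposited. After removal of 64 control probe sets, 22746 were tested. The array annotation gave 1 gene for 13513 of these, several for 503 and none for 8730. UGT genes were found by symbol and matched to loci in a RefSeq gene table (TAIR10.1) for names and gene order alone.

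One mean per group was fitted with limma 3.58.1 (R 4.3.3) to all 6 arrays (lmFit, contrasts.fit and eBayes with default prior, 3 residual and 4.43 prior degrees of freedom). There were 4 contrasts: both alleles averaged, camta3-1 alone and camta3-2 alone were each set against the wild type, and camta3-2 was set against camta3-1. Tests were two-sided, with Benjamini-Hochberg adjustment over all 22746 probe sets and a threshold of 0.05; intervals are at 95%. Only 2 arrays per group limit the precision. The fit was also run on simulated data with independent noise in each array. Gaps shared by arrays with the same replicate number were not simulated, so that run says nothing about them. Figures were drawn with matplotlib 3.10.9.

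Members, role lists and pathway lists were chosen with earlier results of these data known. Values in every array are given for members in a role list, those with the 12 smallest p, and the 5 highest and 5 lowest log2 fold changes for the mean of both alleles. Of each pathway list up to 4 genes with the smallest p are named, and other genes singled out were chosen after their values were seen. Alternatives were a replicate block, 3 further scalings, a filter at the 40th percentile, other variance priors, array weights, probe set averaging, fewer probe sets or groups, and leaving out each array. Promoter and protein sequences were not analysed here.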

Additional observations from a re-analysis of the deposited data

Results flagged for a closer look

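A probe set that the annotation pairs with UGT73B2 and UGT73B3 was higher in the mutants than in the wild-type controls. The family rule left it out because it is paired with 2 genes. Its log2 fold change for the mean of both alleles was 1.41, a 2.65-fold change with a 95% interval from 0.94 to 1.88 on the log2 scale (limma, adjusted p = 0.0205), and it was higher in 4 of 4 mutant arrays. Which of the 2 genes gave the signal was not tested. The call was lost without camta3-2 replicate 1, without either wild-type array, and without moderation of the variances (adjusted p = 0.42). Without moderation none of the 22746 probe sets passed. With 1 array left out the log2 fold change ran from 1.23 to 1.59. The call held with the replicate block (limma, adjusted p = 0.00568). After cyclic loess, median centring and quantile normalization it also held (limma, adjusted p = 0.018, 0.0187 and 0.018). UGT73B1, which lies beside these genes and has a probe set of its own, had a log2 fold change of 0.020 and did not pass.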

How the results depend on the processing

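The count of UGT genes passing stayed at 0 in the 4 comparisons under every alternative run except 1. With replicate number as a block, 1 UGT gene passed for the averaged alleles and 1 for camta3-2, each against wild type. Both were UGT76C2, at -0.63 for the mean (adjusted p = 0.0293) and with an adjusted p of 0.0386 for camta3-2. The block raised the count over all probe sets from 320 to 493 for the mean. The numbers were not taken to pair the arrays: same-numbered deviations correlated at 0.40 between the alleles over 22746 probe sets, but at -0.037 between wild type and camta3-1 and 0.13 between wild type and camta3-2. With 1 array left out in turn, 0 to 0 genes passed in all 4 comparisons, and the family median ran from -0.15 to -0.020.

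Of the 34 genes followed singly, 11 changed sign under some of the 15 or 16 alternatives run for each, 6 of them only when an array was left out. After cyclic loess, UGT71C5 was at 0.032, UGT73C7 at 0.014, UGT76D1 at 0.027, UGT84A1 at 0.061 and UGT84B1 at 0.032. After quantile normalization they were at 0.0046, 0.011, 0.016, 0.017 and 0.033. With 1 array left out, UGT71B8 ran from -0.32 to 0.18, UGT71C5 from -0.079 to 0.067, UGT73B1 from -0.077 to 0.12, UGT73B4 from -0.018 to 0.10 and UGT73B5 from -0.27 to 0.10. UGT73C2 ran from -0.0075 to 0.095, UGT74F1 from -0.21 to 0.0077, UGT76D1 from -0.077 to 0.00085, UGT84A1 from -0.088 to 0.076 and UGT84B1 from -0.15 to 0.092. The cause of these sign changes was not tested; no gene among them passed under any setting.

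The number of probe sets called for the mean of both alleles was 320 of 22746, but 5 without wild type replicate 1, 60 without wild type replicate 2 and 0 without moderation of the variances, so a count of 0 under those settings says little. Fitting only the groups compared could not be done for the mean of both alleles, which uses all 3 groups. Of the 47 genes, 26 lay below the 40th percentile of mean values, where array signal limits what can be seen.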
